A study of Mus musculus with 6 samples.

Results

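The IGHV6 and IGHV10 families are small groups of heavy chain V gene segments of the mouse IgH locus. Those found here lie near each other in the middle of the locus. The members of both families here were the IgH clonotypes whose best V hit was an IGHV6 or IGHV10 gene, which were 772 of the 14575 IgH clonotypes of the series. The IGHV6 family had 190 clonotypes in iB cells and 172 in the cells of a normal B6 mouse, and the IGHV10 family had 228 and 182, respectively. A clonotype is a distinct CDR3 nucleotide sequence, and CDR3 is the loop that forms where V, D and J segments are joined. In the tables it runs from the conserved cysteine codon to the conserved tryptophan codon, both included.

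The iB cells came from embryonic stem cells of the C57BL/6 background, with a GFP reporter cassette, in which Runx1, Hoxa9 and Lhx2 are expressed together from the Rosa26 locus under doxycycline. The host was a μMT mouse, which lacks B cells because of a targeted Ighm allele. It was 8 to 10 weeks old, was irradiated with 5 Gy, received 5000000 iHPCs (hematopoietic progenitors made from those stem cells) and was given doxycycline in its drinking water. Splenic naïve follicular (FO) B cells, 100000 per mouse, came from 1 such iB-μMT mouse (the iB library), 4 weeks after it received the iHPCs, and from 1 untransplanted C57BL/6 (B6) mouse, whose age the sources used here do not give (the B6 library). Both IgH loci compared are thus of the C57BL/6 background, and the iB cells derive from 1 stem cell line. The tables hold receptor transcripts only, so the sorted phenotype could not be checked against other markers. All 187 IGHV6 and 223 IGHV10 clonotypes of the iB-μMT mouse with a C gene hit had IGHM, the constant region gene of IgM, and so did all 171 and 181 in the B6 mouse. The protocol given with every sample speaks of IgG libraries, whereas these C gene hits were all IGHM. It also speaks of RNA from iB cells for every sample, so the libraries were told apart by their titles. Which cells the RNA of each library came from could not be settled from the tables. The IgH libraries held 909806 reads in 7794 clonotypes for the iB-μMT mouse and 1383617 reads in 6781 clonotypes for the B6 mouse. With 1 library per group there is no replicate check of any difference. Each test below therefore sets 1 library against the other, not iB cells against B6 cells in general, and intervals cover counting error only.

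Each developing B cell cuts and joins 1 V, 1 D and 1 J segment of the heavy chain with the Rag1 and Rag2 recombinase. Before the ends are joined, they can be trimmed, and the enzyme TdT (Dntt) can add nucleotides that no gene encodes. The IGHV6 family is also known as J606, after an antibody against inulin, and the IGHV10 family as DNA4, after antibodies that bind DNA. Both are much smaller than the IGHV1 (J558) family, which fills most of the locus far from the D segments.

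RefSeq lists 11 genes of both families on chromosome 12 (GRCm38.p6), 7 as V segments and 4 as pseudogenes, and 5 of them were found. IGHV6-3 lies at chr12:114391712-114392010, IGHV6-6 at chr12:114434788-114435087 and IGHV6-7 at chr12:114455626-114455925. IGHV10-1 lies at chr12:114479007-114479451 and IGHV10-3 at chr12:114523441-114523887. The V segments IGHV6-4 and IGHV6-5 were in no V hit of either library. With 3 clonotypes taken as the limit, a count of 0 allows a share of up to 0.0385% of the IgH clonotypes in the iB library and 0.0442% in the B6 library.

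The part of CDR3 that each V gene encodes differs between the genes. These were the bases at the start of CDR3 in every clonotype whose V end was untrimmed and matched the V gene, and they were the same in both mice.
IGHV6-3: tgcacagg
IGHV6-6: tgtaccagg
IGHV10-1: tgtgtgaga
IGHV10-3: tgtgtgagaga
Read in frame, IGHV6-6 and both IGHV10 genes carry an arginine codon at codon 3 of CDR3, whereas IGHV6-3 ends within that codon. The IGHV10 genes start alike, and IGHV10-3 runs 2 bases further. Of the IGHV10 clonotypes, 221 in the iB library and 175 in the B6 library had the other IGHV10 gene as a second V hit, with a median gap between both alignment scores of 170 and 134. The best hit was tied in 1 IGHV10 clonotype, in the iB library. All IGHV6 clonotypes had a single V hit.

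The clonotype with the most reads of each gene is shown for each mouse. Inserted nucleotides, taken as those between the reported V, D and J ends, are in capitals. Where no D gene was assigned, inserted nucleotides could not be told from D, and no capitals are used.
IGHV6-3, iB library, IGHD1-1 and IGHJ2: tgcacagacggttacgttgactactgg
IGHV6-3, B6 library, IGHD3-2 and IGHJ2: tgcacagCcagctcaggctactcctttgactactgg
IGHV6-6, iB library, IGHD2-8 and IGHJ2: tgtaccaggCGAggtaactacgactactgg
IGHV6-6, B6 library, no D and IGHJ3: tgtacggggatgagaaggatggcttactgg
IGHV10-1, iB library, no D and IGHJ1: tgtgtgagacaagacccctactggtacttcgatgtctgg
IGHV10-1, B6 library, IGHD2-5 and IGHJ3: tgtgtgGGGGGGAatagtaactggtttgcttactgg
IGHV10-3, iB library, IGHD4-1 and IGHJ2: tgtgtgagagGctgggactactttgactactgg
IGHV10-3, B6 library, no D and IGHJ2: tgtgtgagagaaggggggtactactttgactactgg
They held 251 and 394 reads for IGHV6-3, 308 and 306 for IGHV6-6, 445 and 608 for IGHV10-1, and 313 and 399 for IGHV10-3, in the iB library and the B6 library, respectively. The IGHV10-1 clonotype of the B6 library carried 7 nucleotides between the reported ends, and the IGHV6-3 clonotype of the iB library carried none there.

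Both families took similar shares of the IgH clonotypes in the 2 mice, and no test of a share passed the threshold. The IGHV6 family made up 2.44% of IgH clonotypes in the iB library (95% Wilson interval 2.12 to 2.80%) and 2.54% in the B6 library (2.19 to 2.94%). The difference was -0.0987 percentage points (95% Newcombe interval -0.612 to 0.407), and the adjusted p of Fisher's exact test was 0.709. The IGHV10 family made up 2.93% (2.57 to 3.32%) and 2.68% (2.33 to 3.10%), a difference of 0.241 percentage points (-0.300 to 0.777), with an adjusted p of 0.465 by Fisher's exact test. The ratio of the shares, iB over B6, was 0.961 for IGHV6 (95% interval 0.784 to 1.18) and 1.09 for IGHV10 (0.899 to 1.32). Intervals of this width do not show equal use. Of 13 IGHV families tested, 5 were called at an adjusted p under 0.05 (38.5%), and neither IGHV6 nor IGHV10 was among them.

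No gene of either family passed the test of its share. IGHV6-3, the most frequent of them, had 132 clonotypes in the iB library and 114 in the B6 library, or 1.69% and 1.68%. IGHV6-6 had 58 and 57 clonotypes, or 0.744% and 0.841%, so that IGHV6-3 made up 69.5% and 66.3% of its family. IGHV10-1 had 111 and 94 clonotypes (1.42% and 1.39%), and IGHV10-3 had 117 and 88 (1.5% and 1.30%). The IGHV10 genes thus had nearly equal shares, and IGHV10-1 made up 48.7% and 51.6% of the IGHV10 clonotypes. The Wilson intervals of IGHV6-3, IGHV10-1 and IGHV10-3 overlapped in each library. That of IGHV6-6 lay below all 3 of them in the iB library, but in the B6 library (0.649 to 1.09%) it overlapped with that of IGHV10-3 (1.05 to 1.60%). IGHV6-7 had 1 clonotype of 1 read, in the B6 library, and none in the iB library. The split between the genes of a family did not pass the test either, with a difference of 3.19 percentage points for IGHV6-3 within IGHV6 (-6.37 to 12.8) and of -2.96 for IGHV10-1 within IGHV10 (-12.6 to 6.72). The adjusted p over these 2 tests was 0.619 for both by Fisher's exact test.

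**Figure D1:**
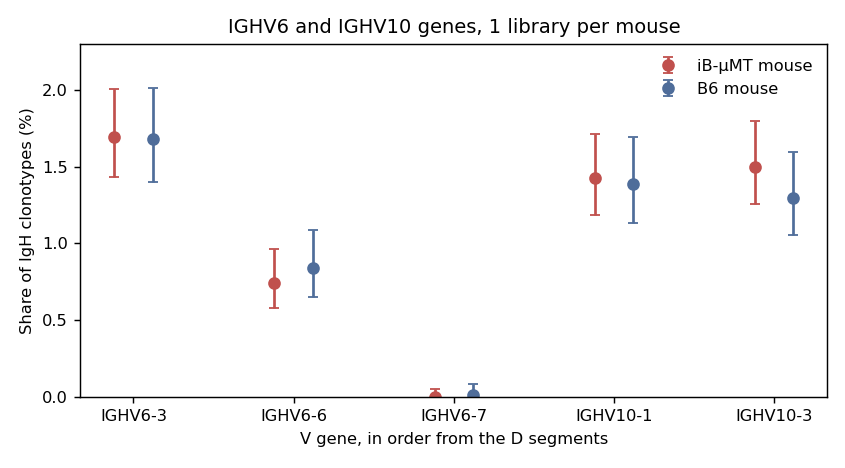
Share of IgH clonotypes (%) of each IGHV6 and IGHV10 gene found, in order from the D segments, in the iB library and the B6 library (1 library each). Points are shares and bars are 95% Wilson intervals. The intervals of both mice overlap for every gene, and IGHV6-7 has 1 clonotype in the B6 library and 0 in the iB library.

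This stood beside large shifts in other V genes. A gene was tested where the libraries held 20 or more of its clonotypes in sum. Of the 77 IGHV genes tested, 48 were called (62.3%), 20 with a higher and 28 with a lower share in the iB library. Of the 4 IGHV6 and IGHV10 genes tested, 0 were called, and 0 had an unadjusted p under 0.05 (the smallest was 0.324, for IGHV10-3, by Fisher's exact test). Their median absolute log2 ratio of clonotype shares was 0.11, beside 0.80 over all 77 genes. The largest of the 4 was 0.21, for IGHV10-3, and 12 of the 73 other genes had a smaller absolute log2 ratio than that.

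In the order along the locus, the 5 genes found lie between V genes that were higher and V genes that were lower in the iB library. Nearer to the D segments, 30 genes were tested, of which 19 had a higher share in the iB library, 0 had a lower share and 11 were not called (median log2 ratio 0.71). Farther from the D segments, 41 genes were tested, of which 1 had a higher and 27 had a lower share, while 13 were not called (median log2 ratio -0.88). As 38 of these 41 are IGHV1 genes, family and position cannot be told apart on that side. Of the 5 genes found next to IGHV6-3 on the D side, IGHV3-6, IGHV3-8 and IGHV13-2 were called higher in the iB library (ratios 1.38, 3.0 and 1.89), IGHV9-4 was not called (1.10), and IGHV12-3 had too few clonotypes to be tested. IGHV8-2, IGHV1-4 and IGHV1-5 lie between the member genes. Of these, IGHV1-5 was called lower (67 and 96 clonotypes, ratio 0.607), IGHV1-4 was not called (30 and 19 clonotypes, ratio 1.37), and IGHV8-2 had 8 clonotypes in each library. Beyond IGHV10-3, IGHV1-9 was called lower (ratio 0.520), IGHV1-7, IGHV15-2 and IGHV1-12 were not called (1.16, 1.26 and 0.834), and IGHV1-11 had too few clonotypes to be tested.

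**Figure D2:**
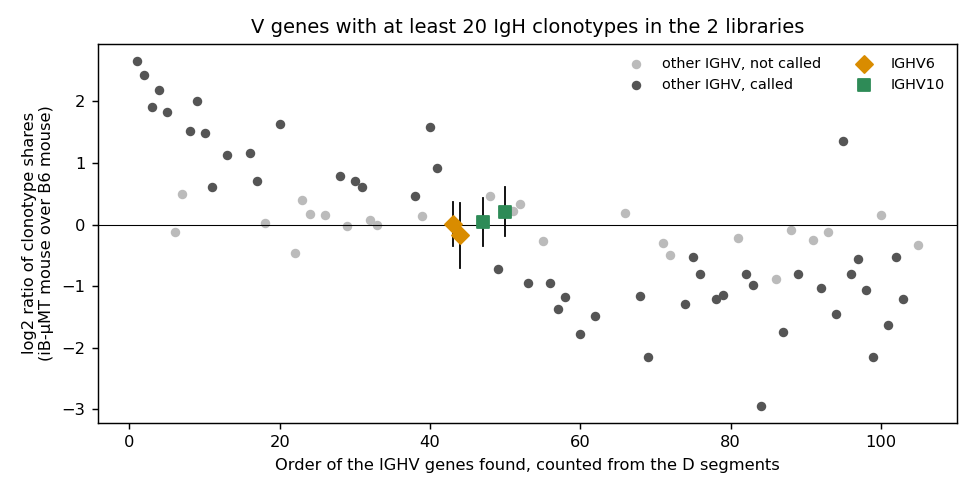
The log2 ratio of clonotype shares (iB library over B6 library) for the 77 IGHV genes tested, by their order from the D segments among the 105 genes found. Diamonds (IGHV6) and squares (IGHV10) carry 95% intervals, grey points are genes that were not called and dark points are called genes. The 4 member genes lie close to 0, with called genes above 0 on their left and mostly below 0 on their right.

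Among families, the log2 ratio nearest to that of IGHV6 (-0.06) was found for IGHV8 (-0.26), IGHV14 (0.17) and IGHV7 (0.32). For IGHV10 (0.12) it was found for IGHV14, IGHV7 and IGHV15 (0.34). The genes with the ratios nearest to IGHV6 were IGHV1-63, IGHV9-1 and IGHV14-4 (log2 ratios -0.09, -0.02 and -0.01), and those nearest to IGHV10 were IGHV9-4, IGHV14-2 and IGHV1-78 (0.13, 0.16 and 0.16). This likeness rests on a single ratio of 2 libraries. By number of clonotypes, IGHV10 was the family of rank 8 of 13 in the iB library and of rank 7 in the B6 library, and IGHV6 was of rank 9 and 8.

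Member clonotypes held fewer reads each than other IgH clonotypes, in both mice. The median was 72 reads for IGHV6 and 82.5 for IGHV10 in the iB library, beside 98 for the clonotypes of all other V genes. In the B6 library it was 115.5 and 134, beside 189. The IGHV6 family therefore held 1.64% and 1.55% of the IgH reads, less than its share of clonotypes, and the IGHV10 family held 2.16% and 1.89%. A lower share of reads than of clonotypes was not particular to the members. IGHV5 held 19.9% and 6.68% of the reads in the iB library and the B6 library, with 31.6% and 12.8% of the clonotypes. IGHV7 held 0.809% and 0.419% of the reads, with 1.36% and 1.09% of the clonotypes. Fewer cells per clonotype and less RNA per cell cannot be told apart in read counts. No member clonotype was large. The largest IGHV6 clonotype made up 0.0339% of all IgH reads of the iB library and 0.0285% of those of the B6 library, and the largest IGHV10 clonotype held 0.0489% and 0.0439%. The 10 largest clonotypes held 13.7% and 16.1% of the IGHV6 reads and 12.6% and 14.8% of the IGHV10 reads, respectively.

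**Figure D3:**
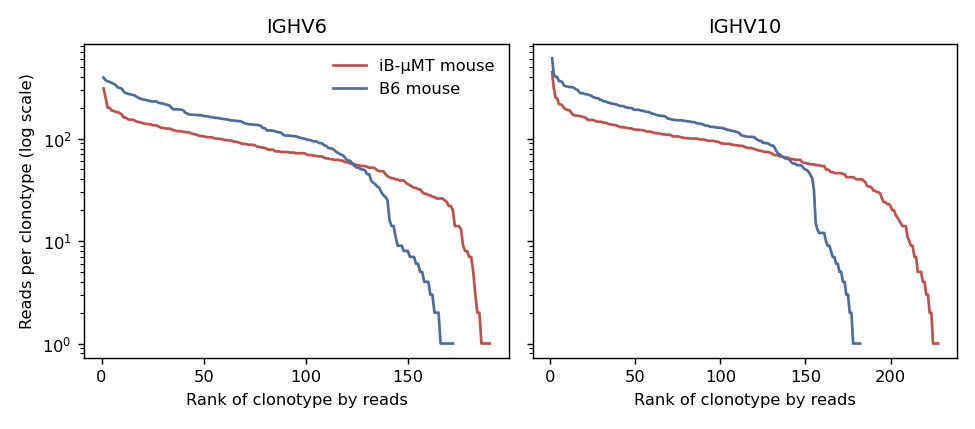
Reads per clonotype (log scale) against the rank of the clonotype by reads, for the IGHV6 and IGHV10 families in the iB library and the B6 library. The largest clonotypes have 308 and 394 reads for IGHV6 and 445 and 608 reads for IGHV10, and the curves of the B6 library, which held more reads in all, lie higher over most ranks and end at fewer clonotypes.

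The junctions of both families carried fewer inserted nucleotides in the iB library. Means, V ends, D genes, arginine and stop codons are given here with their errors and without a test. Nucleotides between the reported V and D ends and between the reported D and J ends were counted as inserted. This was done in the 167 and 140 IGHV6 and the 188 and 148 IGHV10 clonotypes with a D gene. The mean for IGHV6 was 3.04 nucleotides (SD 2.43 over clonotypes) in the iB library and 5.22 (SD 3.10) in the B6 library, a difference of -2.19 (standard error over clonotypes 0.323). For IGHV10 the means were 4.39 (SD 2.81) and 6.24 (SD 3.66), a difference of -1.84 (standard error 0.364). The other IGHV clonotypes had means of 4.35 and 6.40, a difference of -2.04 (standard error 0.0644). The differences of the families thus lay within 1 standard error of that of the other clonotypes. In each mouse IGHV6 had the lowest mean of these 3 groups. Each gene had a lower mean in the iB library, with differences of -2.21 for IGHV6-3, -2.17 for IGHV6-6, -2.08 for IGHV10-1 and -1.54 for IGHV10-3.

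Most of the IGHV10 difference lay between D and J. There the mean was 0.989 inserted nucleotides in the iB library and 2.54 in the B6 library for IGHV10, and 1.08 and 2.32 for IGHV6. At the V-D joint the means were 3.40 and 3.70 for IGHV10, a difference of -0.292 (standard error 0.317), and 1.95 and 2.90 for IGHV6, a difference of -0.948 (standard error 0.240). By gene, the V-D difference was -0.698 for IGHV10-1 (standard error 0.449) and 0.178 for IGHV10-3 (standard error 0.437). In the other IGHV clonotypes the difference was -1.14 between D and J (means 1.21 and 2.35). At their V-D joint it was -0.899 (means 3.14 and 4.04). No nucleotide was inserted between D and J in 59.0% of IGHV10 clonotypes of the iB library and 25% of those of the B6 library, a difference of 34.0 percentage points (95% Newcombe interval 23.7 to 43.3). For IGHV6 the shares were 56.3% and 25.7%, a difference of 30.6 points (19.7 to 40.4), and for the other IGHV clonotypes they were 53.9% and 29.0%.

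Junctions with no inserted nucleotide at either joint were more frequent in the iB library for IGHV6, and those of IGHV10 did not pass the test. They were 24 of 167 IGHV6 clonotypes in the iB library (14.4%, 95% Wilson interval 9.85 to 20.5%) and 5 of 140 in the B6 library (3.57%, 1.54 to 8.09%). The difference was 10.8 percentage points (4.41 to 17.3), with an adjusted p of 0.00207 by Fisher's exact test over 3 tests. For IGHV10 they were 17 of 188 (9.04%) and 6 of 148 (4.05%), a difference of 4.99 points (-0.61 to 10.4) that did not pass the test (adjusted p = 0.0837, Fisher's exact test). The other IGHV clonotypes had 8.61% and 2.74% (adjusted p = 5.56e-45, Fisher's exact test). With at least 8 nucleotides of D required, the calls changed places, with 6.96 points for IGHV6 (adjusted p = 0.0749, Fisher's exact test) and 6.14 points for IGHV10 (adjusted p = 0.0356, Fisher's exact test). Within the iB library, IGHV6 was 5.76 points above the other IGHV clonotypes (1.18 to 11.9), which did not pass the adjustment over 28 tests (adjusted p = 0.0963, Fisher's exact test).

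The member clonotype without inserted nucleotides that held the most reads is shown for each family and mouse. In these, the reported V, D and J parts follow each other with no gap. Bases within a part can still differ from its gene. The first is also the largest IGHV6-3 clonotype of its library, and its IGHJ2 part differs at a base from that of the IGHV10-3 clonotype of the iB library shown above.
IGHV6-3, iB library, IGHD1-1 and IGHJ2: tgcacagacggttacgttgactactgg
IGHV6-3, B6 library, IGHD2-4 and IGHJ3: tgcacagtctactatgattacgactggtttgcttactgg
IGHV10-3, iB library, IGHD2-3 and IGHJ3: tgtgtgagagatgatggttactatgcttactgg
IGHV10-3, B6 library, IGHD3-2 and IGHJ4: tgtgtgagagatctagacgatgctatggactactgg
They held 251 and 315 reads for IGHV6-3 and 165 and 329 reads for IGHV10-3. The D part was 5 bases long in the IGHV6-3 clonotype of the iB library and the IGHV10-3 clonotype of the B6 library, and 16 and 12 bases in the other two. Both IGHV6-3 clonotypes had lost 1 base of the V end, and both IGHV10-3 clonotypes kept the whole V end. By gene, 17 IGHV6-3, 7 IGHV6-6, 4 IGHV10-1 and 13 IGHV10-3 clonotypes of the iB library had no inserted nucleotide, and 3, 2, 1 and 5 did in the B6 library.

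**Figure D4:**
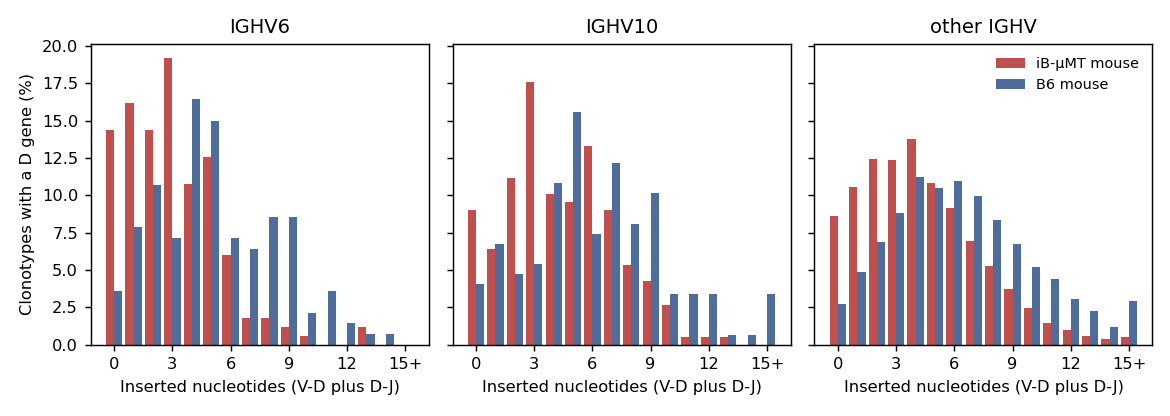
Share of clonotypes with a D gene (%) by the number of inserted nucleotides (V-D plus D-J, 15 and more together) for IGHV6, IGHV10 and all other IGHV clonotypes, in the iB library and the B6 library. In each panel the iB library is shifted to lower numbers, with means of 3.04 and 5.22 for IGHV6, 4.39 and 6.24 for IGHV10, and 4.35 and 6.40 for the others.

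Trimming of the V end varied among the genes of each family. The V end was untrimmed in 91.9% of IGHV10-1 clonotypes of the iB library and 78.7% of those of the B6 library (difference 13.2 points, 95% Newcombe interval 3.51 to 23.2), but in 62.4% and 59.1% of IGHV10-3 clonotypes (3.3 points, -9.94 to 16.6). For IGHV6-3 the shares were 43.9% and 47.4% (-3.43 points, -15.7 to 8.91), and for IGHV6-6 they were 70.7% and 40.4% (30.3 points, 12.2 to 45.8). The other IGHV clonotypes had 73.7% and 71.2%. These shares are descriptions of 58 to 132 clonotypes a gene in the iB library and 57 to 114 in the B6 library.

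The V ends left their mark on codon 3 of CDR3. It was an arginine codon in 93.0% of IGHV10 clonotypes of the iB library and 90.7% of those of the B6 library, and in 69.0% and 52.6% of IGHV6-6 clonotypes, but in 6 of 132 and 4 of 114 IGHV6-3 clonotypes (4.55% and 3.51%). Among the other IGHV clonotypes the shares were 82.8% and 80.8%. An arginine between codon 3 and the closing tryptophan was found in 10.5% of IGHV6 clonotypes of the iB library and 25% of those of the B6 library, a difference of -14.5 points (95% Newcombe interval -22.3 to -6.64). For IGHV10 the shares were 16.2% and 24.7% (-8.50 points, -16.5 to -0.686), and for the other IGHV clonotypes they were 22.4% and 30.1% (-7.66 points, -9.13 to -6.19). All 3 groups were lower in the iB library, and whether they differed in this was not tested.

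CDR3 was shorter in the IGHV6 family than in the other clonotypes of both mice. Its mean length was 12.1 amino acids (SD 2.32 over clonotypes) for IGHV6 in the iB library and 12.5 (SD 2.78) in the B6 library, beside 13.6 and 14.0 for the other IGHV clonotypes. The IGHV10 family had 13.8 amino acids in both mice (SD 2.45 and 2.86). Between the mice the means differed by -0.418 for IGHV6 (standard error over clonotypes 0.271) and by -0.0500 for IGHV10 (standard error 0.267). IGHV6-3 and IGHV10-1 had shorter means in the iB library (differences -0.716 and -0.544, standard errors 0.327 and 0.360), and IGHV6-6 and IGHV10-3 had longer ones (0.272 and 0.443, standard errors 0.485 and 0.393). The range was 7 to 19 amino acids for IGHV6 in both mice, and 9 to 20 and 7 to 23 for IGHV10.

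IGHD4-1 (DQ52), the D segment nearest to the J segments, had a larger share among members of both families in the iB library. Of the IGHV6 clonotypes with a D gene, 28.7% had it in the iB library and 15% in the B6 library (13.7 points, 95% Newcombe interval 4.42 to 22.6), as did 18.1% and 9.46% of IGHV10 clonotypes (8.63 points, 1.07 to 15.8). The other IGHV clonotypes had 18.5% and 9.65%. IGHV6-3 had IGHD4-1 in 40 of 116 and 14 of 96 clonotypes (34.5% and 14.6%), and IGHV10-1 had it in 17 of 89 and 2 of 77 (19.1% and 2.60%), while IGHV6-6 had 15.7% and 16.3% (-0.593 points, -16.2 to 14.2) and IGHV10-3 had 17.2% and 16.9% (0.270 points, -11.8 to 11.3). Whether the genes of a family differed in this was not tested. IGHD1-1 (DFL16.1), a D segment at the V side of the cluster, was found in 16.2% and 32.1% of IGHV6 clonotypes (-16.0 points, -25.4 to -6.41) and in 24.5% and 28.4% of IGHV10 clonotypes (-3.91 points, -13.5 to 5.47). In the other IGHV clonotypes it was found in 22.3% and 34.3%. The IGHD2 family was the most frequent in members, with 46.1% and 48.6% for IGHV6 (-2.46 points, -13.5 to 8.64) and 47.9% and 51.4% for IGHV10 (-3.48 points, -14.1 to 7.21). It was also the most frequent in the other IGHV clonotypes, with 50.4% and 43.8% (6.57 points, 4.79 to 8.35). Whether these D differences of a gene or family depart from those of the other clonotypes was not tested.

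J gene use within the families was similar in both mice. IGHJ2 was the most frequent J gene of IGHV6, with 37.4% in the iB library and 34.3% in the B6 library, and IGHJ4 was the most frequent of IGHV10, with 35.1% and 36.3%. IGHJ4 made up 21.1% and 22.7% of IGHV6 clonotypes, and IGHJ2 made up 26.3% and 25.3% of IGHV10 clonotypes. IGHJ3 had 25.8% and 25.6% for IGHV6 and 25% and 26.9% for IGHV10, and IGHJ1 had 15.8% and 17.4% for IGHV6 and 13.6% and 11.5% for IGHV10. None of the 8 tests between the mice passed (lowest adjusted p = 0.955, lowest unadjusted p = 0.554, Fisher's exact test), and the largest difference was 3.07 points (95% Newcombe interval -6.80 to 12.8), for IGHJ2 in IGHV6. Against the other IGHV clonotypes of the same library, 0 of 28 tests on J genes, D assignment, stop codons and inserted nucleotides passed the adjustment, and 8 had an unadjusted p under 0.05 by Fisher's exact test. Of these 8, 4 were J genes. IGHJ4 had 21.1% in IGHV6 of the iB library, beside 29.7% in the other clonotypes, and 36.3% in IGHV10 of the B6 library, beside 26.9%. IGHJ2 had 26.3% and 25.3% in IGHV10, beside 33.4% and 32.9% (lowest adjusted p of the 4 = 0.0861, Fisher's exact test).

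**Figure D5:**
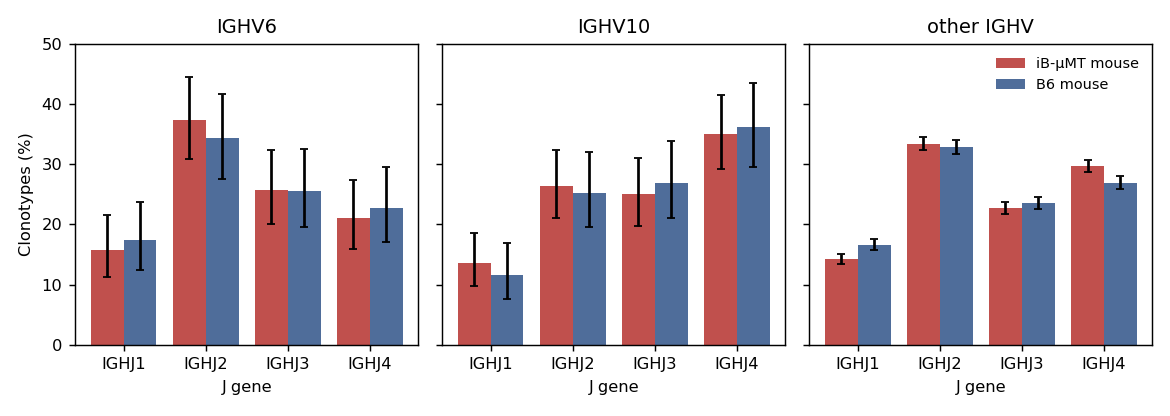
Share of clonotypes (%) with each IGHJ gene among IGHV6, IGHV10 and all other IGHV clonotypes, in the iB library and the B6 library. Bars start at 0 and error bars are 95% Wilson intervals. IGHJ2 is highest for IGHV6 (37.4% and 34.3%) and IGHJ4 is highest for IGHV10 (35.1% and 36.3%), in both mice.

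Stop codons and shared sequences were rare among the members. A stop codon was found in CDR3 of 1 IGHV6 clonotype of the iB library and 7 of the B6 library (0.526% and 4.07%, difference -3.54 points, 95% Newcombe interval -7.66 to -0.369), and of 1 and 5 IGHV10 clonotypes (0.439% and 2.75%, -2.31 points, -5.85 to 0.236). The other IGHV clonotypes had 0.691% and 2.15%. A D gene was assigned in 87.9% and 81.4% of IGHV6 clonotypes and in 82.5% and 81.3% of IGHV10 clonotypes, beside 87.2% and 88.1% of the others. Of the 34 IgH clonotypes found in both mice, 1 was a member. It is shown because it was found in both mice, and it carried 10 inserted nucleotides in each library.
IGHV10-1, IGHD1-1 and IGHJ3: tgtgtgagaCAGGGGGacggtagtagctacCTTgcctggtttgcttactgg
It had 1 read in the iB library and 162 reads in the B6 library. Among the 34 shared clonotypes, 26 had a single read in one of the libraries.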

How the data were processed

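IgH transcripts of naïve FO B cells (1 mouse per group) were amplified by 5′ RACE and read on an Illumina MiSeq, and clonotypes were built by the authors in MiXCR 3.0.13. The submitters' processing notes name bcl2fastq and mm10. The deposited values used per clonotype were its read count, its fraction of the reads in that library, and a score, which is the lowest base quality in CDR3. Reads carry no molecular identifiers, so each clonotype was counted once. The 4 light chain libraries were not used here.

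The first V hit gave the gene and family. All 105 IGHV names matched RefSeq (GRCm38.p6), which gave coordinates and gene order. Inserted nucleotides lay between the reported V, D and J ends, so palindromic bases may count among them. Bases within an aligned V, D or J part that differ from its gene were not counted as inserted. Genes and families whose clonotypes numbered 20 or more over both libraries were tested by Fisher's exact test (two-sided) with Benjamini-Hochberg adjustment over all of them, at 0.05. With 1 library per group, no edgeR fit was possible. Shares have 95% Wilson intervals, and differences have Newcombe intervals. At 3 reads the floor was 0.00033% and 0.000217% of IgH reads. The members and lists were chosen with earlier results of these data known. Named genes were all members found, the 5 genes on each side, those between, and the 3 genes and 3 families with the nearest ratio. Sequences shown were the largest clonotype of each gene, the largest without insertions and those shared. On simulated clonotypes, 20 of 20 V genes changed by a factor of 3 were called among 79 tested, and 0 of 81 without a change. The changed genes were drawn from the more frequent ones, and clonotypes were drawn independently. The simulation thus did not cover smaller changes or variation between mice or libraries. Python 3.11.15, NumPy 2.4.6, SciPy 1.17.1, pandas 2.3.3 and matplotlib 3.10.9 were used.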

Additional observations from a re-analysis of the deposited data

How the results depend on the processing

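The alternatives were at least 2 or 5 reads, equal read numbers, a unique best V hit, productive clonotypes only, no shared clonotypes, merging of clonotypes 1 mismatch from one with at least 10 times the reads, weighting by reads, at least 8 nucleotides of D, and no minimum of clonotypes. Of 126 recomputed values, 118 kept their direction and their side of the threshold, or moved by less than their error. Counts were taken as kept if they changed by at most a factor of 1.5. Some of the 118 could not change, because all IGHV6 clonotypes had a single V hit and none was shared. The IGHV6 junction and length values therefore stayed the same with a unique best V hit and with no shared clonotypes. The IGHV10 family share differed by 0.209 to 0.287 points and was never called. No share difference of IGHV6 was called, and some signs turned, with weighting by reads (0.0944 points) and with merging (0.0208 points) for the IGHV6 family, with merging for IGHV6-6 (0.00194 points), and with at least 2 reads for IGHV6-3 (-0.0155 points). Between 46 and 51 IGHV genes were called, and 0 of the member genes. For the share without inserted nucleotides, IGHV6 lost its call with at least 8 nucleotides of D (6.96 points), and IGHV10 gained one there (6.14 points) and among productive clonotypes (5.62 points). Weighted by reads, the IGHV6 mean of inserted nucleotides differed by -1.62. Merging left 413 of 418 member clonotypes in the iB library, but 323 of 354 in the B6 library. Over all V genes it left 7705 of 7794 and 6393 of 6781 clonotypes. The difference in stop codons between the libraries was not recomputed with merging. With merging, 2 of the 28 tests against the other clonotypes passed, both for IGHV10 in the B6 mouse (D gene assigned in 81.2% beside 89.1%, and IGHJ4 in 38.8% beside 28.1%). The cause of these changes was not tested. The recomputed tests of J genes, of single genes and of the families against other clonotypes were chosen after seeing the data. Between 43 and 188 clonotypes with a D gene per gene or family and library limit all junction values. No paired analysis was possible because there was 1 library per group.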
